A study of Mus musculus with 9 samples.

Results

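The comparison set organoids of mouse small intestine grown with a compound that inhibits the TGF-beta receptors TGFBR1 and TGFBR2 against the same kind of organoids grown without it. Organoids are closed epithelial cultures in which crypt-like buds hold stem and Paneth cells and the rest of the wall holds their differentiated progeny. The members are 6 of the 9 arrays of the series, chosen by their titles: 3 labelled as untreated and 3 labelled with the inhibitor at 20 uM, given from day 1 of a 6-day culture. The other 3 arrays, from organoids given TGF-beta1 at 0.04 ng/mL over the same days, entered the filter and the estimate of spread, and their own values come only at the end. Every probe set with 1 annotated gene symbol was included, 34945 of 45101. Total RNA was hybridised to an Affymetrix 3 prime expression array, and the values are linear signals. The sources used here give neither the strain, the segment of intestine, the compound's name nor any vehicle. No agent beyond the inhibitor and TGF-beta1 is named in the labels. Whether the 3 replicates of a group came from separate cultures is not stated, and the p-values then reflect only how far these arrays spread, which may be technical error.

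TGF-beta ligands bring together a type II and a type I receptor kinase, and the type I receptor then phosphorylates Smad2 and Smad3, which join Smad4 and act on genes in the nucleus. In intestinal epithelium the pathway is known as a brake on division, acting in part through inhibitors of cyclin-dependent kinases, and as a regulator of matrix genes. The related BMP branch uses Smad1, Smad5 and Smad8 and is known to be strongest toward the villus, where Id genes are among its targets.

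Signals were compared as log2(signal + 16), and a gene is said to have risen or fallen where limma's p, adjusted by Benjamini-Hochberg over all 12941 genes tested, was under 0.05. Changes are given as log2 change ± SE with n = 3 arrays per group, and changes of genes with signals near or below 16 are understated. The comparison called 5837 genes, 45.1% of those tested, with 21.2% higher and 23.9% lower. A call is said to have held where the gene passed in the same direction in all 16 alternative analyses that tested it, which include leaving out each of the 6 arrays. Calls held in 29.3% of genes, 13.6% higher and 15.7% lower, and a list's counts are to be read against these shares. The 3 signals of each group did not overlap in 55.9% of genes. Most genes named below were chosen partly because their groups did not overlap, so that trait adds no support for them. Genes called with a change of at least 1.5-fold made up 8.11% higher and 9.46% lower. Among the called genes 3564 changed by less than 1.5-fold, 24 rose and 26 fell by at least 4-fold, and 3 rose and 6 fell by at least 8-fold. Values of 108 genes passed the filter on all 3 inhibitor arrays and on no untreated array, and 80 of these genes were called higher. Values of 87 genes did the reverse, and 71 of these were called lower. Both sets were picked by the same values that the test used. Calls in these directions are thus likely from the choice alone and add no support.

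The arrays of a group resembled each other closely, with Pearson correlations over probe sets of 0.991 to 0.993 within both groups and of 0.965 to 0.969 between them. The epithelial markers Epcam, Cdh1, Krt8, Krt18, Krt19, Lgals4 and Cldn7 were bright on all arrays, and the summed signal of 14 epithelial markers was 98260 to 104600 untreated and 102900 to 118300 under the inhibitor. Of the 14, 3 rose and held, Vil1, Krt20 and Cdh17, and 3 fell, Cdx1, which held, and Cdx2 and Elf3, which did not. Of 20 fibroblast and smooth muscle markers, 9 passed the filter and none was called, with sums of 1400 to 1562 and 1546 to 1896, most of it from Fbln1, while Col1a1, Col3a1 and Dcn stayed below the filter level. Leukocyte markers passed in 9 of 19 and summed to 1969 to 2177 and 1434 to 1626. Kit and Lyz2, which goblet and Paneth cells also express, fell by 1.51 and 0.69 on the log2 scale, and Cd68 and Csf1r rose by 0.66 and 0.92. Endothelial markers passed in 5 of 13, with sums of 1097 to 1168 and 1001 to 1066, and only Esam fell among them, without holding. Neuronal and glial markers passed in 6 of 9, with sums of 206.1 to 282.2 and 425.5 to 492.6, and Ret and S100b rose, the latter without holding. The log2 ratio of 3 prime to 5 prime signal of the beta-actin control probe sets was 0.433, 0.430 and 0.370 untreated and 0.179, 0.238 and 0.217 under the inhibitor, while that of Gapdh lay between -0.291 and -0.255 on all 6 arrays. The part of these differences in the results was not tested. In bulk RNA fewer cells of a type and less RNA per cell cannot be told apart.

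**Figure D1:**
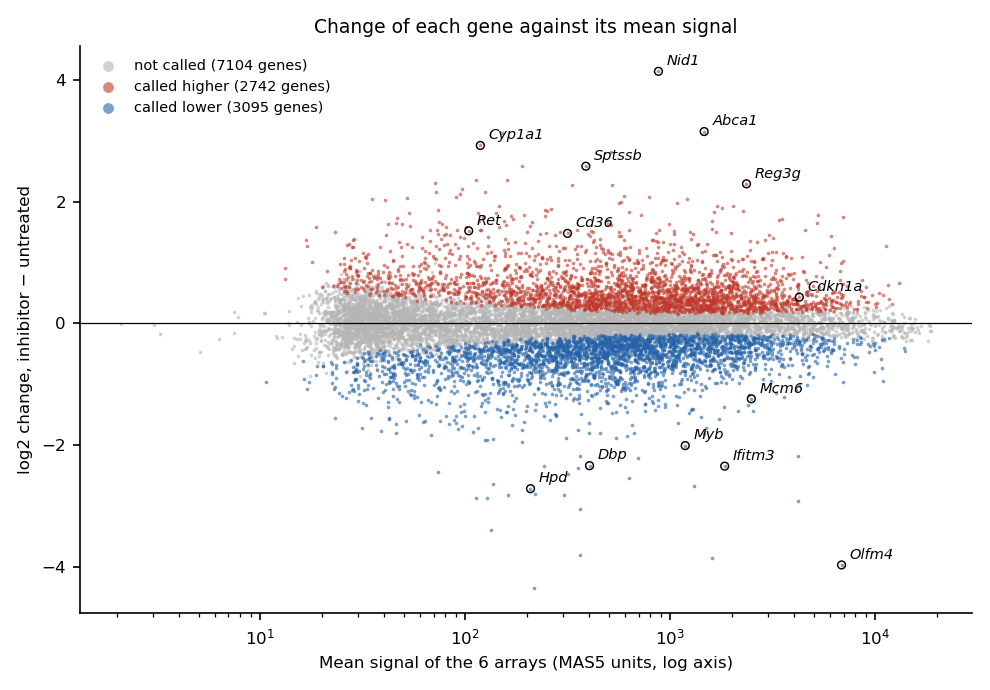
Each point is 1 of the 12941 genes tested, with its mean signal over the 6 arrays (log axis) on the horizontal axis and its log2 change, inhibitor minus untreated, on the vertical axis. Red points are the 2742 genes called higher and blue points the 3095 called lower, and calls of both directions span the range of signals; 14 genes named in the text are labelled.

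The largest rise was that of Nid1, which encodes a nidogen that ties laminin to collagen in basement membranes. Its signals were 64.3, 86.3 and 90.4 in the untreated arrays and 1612, 1689.6 and 1706 in the inhibitor arrays, a log2 change of 4.14 ± 0.11 (adjusted p = 5.36e-11), and the groups lay far apart. Abca1, the exporter of cholesterol to apolipoproteins, had signals of 323, 338 and 206 in the untreated arrays and 2674, 2696 and 2539 in the inhibitor arrays, a change of 3.15 ± 0.14 (adjusted p = 5.70e-09). Rtp4, an interferon-response gene, had signals of 19.4, 3.001 and 27.6 untreated and 119, 424 and 309 under the inhibitor. Rtp4 was dim in all untreated arrays, and its change of 3.12 ± 0.39 is understated on this scale. Cyp1a1, a cytochrome P450 of xenobiotic metabolism, had signals of 14.4, 19.5 and 7.79 untreated and 349, 144 and 176 under the inhibitor, again dim without the inhibitor. The inhibitor arrays of Cyp1a1 spread more widely among themselves than those of Nid1 or Abca1. Reg3g, a secreted lectin that kills Gram-positive bacteria, had signals of 869.7, 807 and 689.8 in the untreated arrays and 3712, 3779.5 and 4256 in the inhibitor arrays, a 4.90-fold rise (adjusted p = 6.45e-09). Further rises of at least 1.8 on the log2 scale included Atp11a (2.81), a phospholipid flippase, Sptssb (2.58), a subunit of serine palmitoyltransferase, and Fut2 (2.36), a fucosyltransferase. The same range held the secreted inhibitor of interleukin-1 signalling Il1rn (1.99), the tubulin genes Tuba1a (1.92) and Tubb2a (1.82), and the brush border peptidase Anpep (1.90).

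The deepest fall was that of Ccl6, a chemokine of goblet cells in this tissue, with signals of 342, 588 and 349.9 in the untreated arrays and 8.97, 5.33 and 2.04 in the inhibitor arrays. Its inhibitor signals lay below the filter level on every array, so its log2 change of -4.34 ± 0.20 is an underestimate. Olfm4, a secreted glycoprotein of crypt base columnar stem cells, had signals of 12404, 13284 and 12895 in the untreated arrays and 750.2, 696 and 1013 in the inhibitor arrays, and its adjusted p was 1.30e-10. Klk1, a kallikrein protease of goblet cells, had signals of 2731, 3388 and 2854 untreated and 194, 211 and 169 under the inhibitor, a 14.5-fold fall. Ccl9, a relative of Ccl6, fell 13.98-fold. Several large falls were in genes outside the cell type lists. Hpd, the tyrosine-degrading hydroxyphenylpyruvate dioxygenase, had signals of 332, 377 and 408 untreated and 56.2, 35.6 and 39.3 under the inhibitor. Adh4, an alcohol dehydrogenase that also oxidises retinol, had signals of 2754, 2197 and 1861 untreated and 395, 334 and 292 under the inhibitor. Neither gene's groups overlapped, which was a condition for naming them. Pcdh8, a protocadherin, changed by -2.82 ± 0.16 and Slc16a12, a monocarboxylate transporter family member, by -2.81 ± 0.18. Pla2g4a, the cytosolic phospholipase that frees arachidonic acid, changed by -2.20 ± 0.12, and Tgm2, a transglutaminase that cross-links matrix proteins, by -1.88 ± 0.08. Ifitm3, a membrane protein that blocks viral entry, had signals of 2703, 3413 and 3148 untreated and 592, 543 and 649 under the inhibitor.

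**Figure D2:**
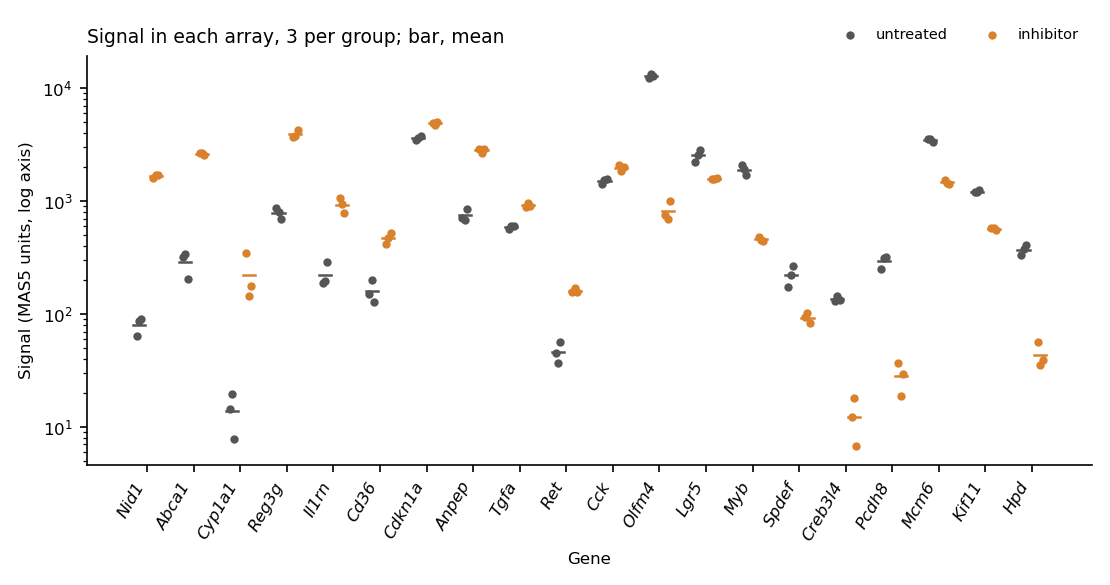
Signal (MAS5 units, log axis) of 20 named genes in each of the 3 untreated arrays (grey) and 3 inhibitor arrays (orange), with the group mean as a bar. The groups did not overlap in any gene drawn, from Nid1 at 80.3 against 1669 on average to Cck at 1509.9 against 1976. Most of these genes were chosen partly for that, and 55.9% of all genes tested showed it.

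Within the targeted pathway most components kept signals that did not pass the test. Of 10 ligands and latency proteins tested, 1 rose (1 held): Fstl3, a secreted binder of activin, with signals of 33.2, 23.7 and 27.7 untreated and 74.5, 61.2 and 61.5 under the inhibitor. Of 12 receptors and receptor-activated Smads, Acvr2a, an activin type II receptor, rose by 0.38 ± 0.07 and held, and its relative Acvr2b fell with a change of -0.92 ± 0.21 and held. Smad3 fell (-0.24 ± 0.07) but did not hold: with its probe sets averaged the change was -0.03 (adjusted p = 0.874). Both receptors that the inhibitor targets missed the threshold, with signals of 1204, 1349 and 1311 in the untreated arrays and 1153, 1141 and 1192 in the inhibitor arrays for Tgfbr1 (adjusted p = 0.0986) and 3921, 4191 and 4123 in the untreated arrays and 3989.8, 4819 and 4783 in the inhibitor arrays for Tgfbr2 (adjusted p = 0.167). Smad2 (-0.20 ± 0.09) and Smad4 (-0.07 ± 0.07) also missed it. Among 12 feedback inhibitors and co-repressors, Pmepa1, which binds and sequesters receptor Smads, had signals of 198, 188 and 228 in the untreated arrays and 89.9, 78.9 and 82.3 in the inhibitor arrays, a 2.21-fold fall (adjusted p = 2.58e-06). Tgif2, a Smad-binding repressor, changed by -1.10 ± 0.08 and both falls held. Smad7, the inhibitory Smad induced by the pathway, changed by -0.39 ± 0.15 (adjusted p = 0.0462) with overlapping groups and, like Tgif1 (-0.31 ± 0.09), its call did not hold. Without inhibitor replicate 3 the change of Smad7 was -0.24 (adjusted p = 0.209), and without untreated replicate 3 that of Tgif1 was -0.20 (adjusted p = 0.0626). Dact2 and Ppm1a rose without holding. Ski and Skil, the co-repressors degraded on pathway activation, showed changes of 0.08 ± 0.09 and 0.01 ± 0.08, neither called.

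Genes known as targets of TGF-beta in other cells did not move as a block. Of 19 tested, 6 rose (6 held) and 3 fell (1 held), and their median change was 0.13 beside -0.01 for all genes. The risers were Rhob (1.13 ± 0.13), a small GTPase of endosomes and actin, the receptor for urokinase Plaur (1.02 ± 0.13), Ccn2 (0.94 ± 0.20), the metalloprotease inhibitor Timp1 (0.76 ± 0.17) and the cell cycle inhibitors Cdkn2b and Cdkn1a. Cdkn2b, which encodes p15, had signals of 1029, 854 and 1068 in the untreated arrays and 1780.1, 1778 and 1783 in the inhibitor arrays, and Cdkn1a, which encodes p21, of 3475, 3639 and 3758 in the untreated arrays and 4914, 4769 and 4998 in the inhibitor arrays. Both cell cycle inhibitors were thus higher with the receptors blocked, by 0.85 ± 0.09 and 0.43 ± 0.09. Lmcd1, a LIM-domain cofactor, fell from signals of 154, 157 and 150.4 to 46.2, 52.04 and 19.2, while Ccn1 and Tpm1 fell without holding. Tgfbi, an extracellular protein named for its induction by the ligand, had signals of 106, 101 and 107 untreated and 100.2, 148 and 95.5 under the inhibitor and was not called. The BMP branch showed its targets low: of 8 tested, 5 fell (5 held), which were Smad6, Id3, Id1, Id2 and Hes1, the last better known as a Notch target. Smad6, the inhibitory Smad of that branch, had signals of 98.02, 98.6 and 112 in the untreated arrays and 34.9, 16.4 and 20.8 in the inhibitor arrays. Id1, an antagonist of bHLH transcription factors, had signals of 814, 880.4 and 775 in the untreated arrays and 318, 307 and 322 in the inhibitor arrays, and Id3 of 205, 209 and 315 untreated and 76.5, 75.2 and 78.2 under the inhibitor. None of these groups overlapped, as in 55.9% of all genes tested. Among 13 BMP ligands, receptors and Smads, Bmp8b (1.85 ± 0.16), Bmp1 (0.52 ± 0.14), Bmp2 (0.29 ± 0.08), Bmpr2 and Chrd rose, the last pair without holding, and Smad5 fell (-0.72 ± 0.08).

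Genes of cell division were lower under the inhibitor in nearly every member. Of 45 DNA replication genes 43 fell (40 held), with a median change of -0.92, and none rose. Of 52 mitosis genes 50 fell (48 held), with a median of -0.69, and of 25 repair and checkpoint genes 24 fell (24 held), with a median of -0.74. Over all genes the share called lower was 23.9%. Mcm6, a subunit of the replicative helicase, had signals of 3565, 3569.7 and 3343 in the untreated arrays and 1546, 1449 and 1424 in the inhibitor arrays, a change of -1.24 ± 0.07 (adjusted p = 3.58e-08). Uhrf1, which carries DNA methylation through replication, changed by -1.53 ± 0.09, Pole, the catalytic subunit of polymerase epsilon, by -1.31 ± 0.08, and Tk1, thymidine kinase, by -1.34 ± 0.07. Kif11, the motor that pushes spindle poles apart, had signals of 1196, 1198 and 1258 in the untreated arrays and 579.8, 575 and 557 in the inhibitor arrays. Ncapd2, a subunit of condensin, had signals of 1173, 1121 and 1219.5 untreated and 585, 542 and 581 under the inhibitor. Mki67, the proliferation antigen, had signals of 3614, 3802 and 3618 in the untreated arrays and 2310.2, 2619 and 2475 in the inhibitor arrays and changed by -0.57 ± 0.08. In each of these the highest inhibitor array lay below the lowest untreated array, as in 29.3% of all genes tested, and most were chosen partly for that. Repair genes fell by similar amounts, such as Brca2 (-1.08 ± 0.09), a gene of homologous recombination, and Ung (-1.11 ± 0.09), which removes uracil.

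The G1 list leaned lower with exceptions, with 56% of members called lower beside 23.9% of all genes and a median change of -0.31. Of 25 members 14 fell (11 held) and 2 rose, E2f2 (0.47 ± 0.12), which held, and Rb1 (0.30 ± 0.08), which did not. Ccnd1, cyclin D1, had signals of 1651, 1658 and 1655 in the untreated arrays and 538, 493 and 543 in the inhibitor arrays, a 3.09-fold fall. Its kinase partners Cdk4 (-1.09 ± 0.07) and Cdk6 (-0.82 ± 0.09) fell too. The inhibitor of G1 kinases Cdkn1b was not called (-0.27 ± 0.16, adjusted p = 0.186), but passed as lower where only the 6 arrays compared were fitted (adjusted p = 0.0234). Among 13 histone genes 6 fell (4 held), and only the linker histone H1f2 rose, with signals of 2559, 2584 and 2363 untreated and 5148, 5720.4 and 4943 under the inhibitor.

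Promoters of the cycle genes are shown because they hold the letters of motifs long tied to replication and mitosis. The windows run from 250 bases before to 50 bases after each start in RefSeq (GRCm38.p6), and 10467 of the 12941 genes tested had one. Motifs were searched on both strands, and a match describes letters only. The second form of the E2F site, TTTGGCGC, was present in 19.4% of 36 replication genes with a window and in 1.14% of all genes tested that had one. The form TTTCCCGC stood in 16.7% and 2.27%. The CHR, TTTGAA, was present in 75.6% of 45 mitosis genes and in 14.6% of all. Among all genes called lower that had a window, TTTGGCGC stood in 1.46%, TTTCCCGC in 3.98% and the CHR in 18.1%. Matches of different motifs were counted separately, also where they share bases. CCAAT stood in 71.1% of mitosis genes, 61.1% of replication genes and 42.6% of all. The printed stretches end at the base before the start, read 5′ to 3′ along the gene, with the second form of the E2F site in capitals for Mcm6 and the CHR, on either strand, in capitals for Kif11 and Ncapd2.
Mcm6, chr1:128359706-128359825, - strand: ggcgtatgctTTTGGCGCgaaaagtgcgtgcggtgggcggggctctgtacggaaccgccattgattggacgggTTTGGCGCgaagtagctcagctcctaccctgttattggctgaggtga
Kif11, chr19:37376322-37376381, + strand: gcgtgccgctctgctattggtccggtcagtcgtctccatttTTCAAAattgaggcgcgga
Ncapd2, chr6:125191587-125191716, - strand: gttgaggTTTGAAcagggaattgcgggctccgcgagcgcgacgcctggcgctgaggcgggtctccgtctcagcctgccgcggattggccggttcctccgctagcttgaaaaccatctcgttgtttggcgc
Mcm6 carried its motif at 110 and 47 bases before the start, Ncapd2 at 123 bases before it, and Kif11, where TTCAAA is the CHR on the other strand, at 19 bases before it. All 3 genes fell by at least 1 on the log2 scale, and a link between motif and change was not tested.

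Of 51 ribosome biogenesis genes 43 fell (39 held), with a median of -0.57, and none rose. Rrp1b, a nucleolar processing factor, had signals of 718, 599 and 683 in the untreated arrays and 298, 274 and 329 in the inhibitor arrays, and Dkc1, the pseudouridine synthase of small nucleolar particles, of 3713, 4307 and 4137 untreated and 1917, 2168 and 2241 under the inhibitor. Mitochondrial ribosomal proteins fell in 40 of 76 members (26 held) and rose in 3, Mrps36, Mrpl43 and Mrps21, of which Mrps36 held. Mrps28 (-0.91 ± 0.08) and Mrpl37 (-0.78 ± 0.07) were among those that fell. Cytosolic ribosomal proteins fell in 17 of 46 members, but only 7 held, against a background of 15.7% held, and centring arrays on their medians left 11 lower. Many of these genes have near-identical copies whose probes cannot be separated here. Aminoacyl-tRNA synthetases fell in 12 of 19 (7 held), with Kars (-0.62 ± 0.08), the lysine enzyme, and Farsb (-0.52 ± 0.07), a subunit of the phenylalanine enzyme, among them. Shmt2, Phgdh and Mthfd2, which encode enzymes of serine and folate metabolism, come from the stress response list, whose members moved both ways. Shmt2 had signals of 833, 881 and 904 in the untreated arrays and 414, 373 and 411 in the inhibitor arrays, and Phgdh and Mthfd2 changed by -0.69 ± 0.07 and -0.70 ± 0.08. Proteasome subunits moved little, with 2 of 38 higher, Psmd4 and Psmc2, and 4 lower, Psma7, Psmb10, Psmc3ip and Psmd7, with Psmc2, Psma7 and Psmd7 not holding. Psmc3ip is a recombination cofactor that the symbol pattern of this list also caught.

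In energy metabolism the tricarboxylic acid cycle list fell in 8 of 17 members (5 held, namely Fh1, Idh2, Idh3g, Pdhb and Suclg2). Idh2, the mitochondrial NADP-linked isocitrate dehydrogenase, had signals of 1974, 1961 and 1929 in the untreated arrays and 921, 839 and 780.2 in the inhibitor arrays. Fumarase Fh1 changed by -0.41 ± 0.07, and Pdk4, a kinase that shuts pyruvate dehydrogenase, rose without holding. Respiratory chain subunits were called lower in 14 of 78 members, 17.9% beside 23.9% of all genes. Only 4 of these held, Cox7a2l, Cox7c, Ndufa4l2 and Ndufs7. Members called higher were 3, Cox6b2 and Ndufv3, which held, and Ndufb10, which did not. The count lower was 9 without untreated replicate 1, 5 without untreated replicate 2, 8 without inhibitor replicate 2 and 6 without inhibitor replicate 3. Glycolysis and hypoxia genes rose in 6 of 21 (4 held, namely Adm, Hk1, Pfkp and Slc2a1), including the glucose carrier Slc2a1 (0.52 ± 0.07) and Adm (0.88 ± 0.09), and fell in 2, Hk2 and Pklr, without holding. The share that rose, 28.6%, was near the 21.2% of all genes, and the list's median change was 0.02. Lysosome and autophagy genes rose in 12 of 28 members (10 held), with only Wipi1 lower, without holding. The proton pump subunit Atp6v0d1 had signals of 1709, 1512 and 1524 in the untreated arrays and 3191, 2876 and 2602 in the inhibitor arrays, the sialidase Neu1 of 585, 647 and 817 untreated and 1216, 1087 and 1273 under the inhibitor, and cathepsin D, Ctsd, of 2463, 2372 and 2370.2 untreated and 3703, 3336 and 3529 under the inhibitor. The stress response list split, with 9 of 29 higher (5 held) and 10 lower (6 held). Atf3 (0.96 ± 0.12) and Dnajb9 (0.60 ± 0.06) rose, while Ern2, the endoplasmic reticulum stress sensor of mucus cells, had signals of 205, 228 and 253 untreated and 74.8, 76.4 and 55.8 under the inhibitor.

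Crypt base stem cell markers fell in 20 of 27 members (17 held), with a median of -0.61, and rose in 2, Cd44 and Tnfrsf19. Lgr5, the R-spondin receptor that marks these cells, had signals of 2224, 2566 and 2835 in the untreated arrays and 1555, 1576 and 1591 in the inhibitor arrays, a change of -0.68 ± 0.08 (adjusted p = 2.32e-05), which was far smaller in size than that of Olfm4 (-3.96 ± 0.12). Ascl2, the transcription factor that maintains them, had signals of 491, 576 and 600.1 in the untreated arrays and 148, 152 and 163 in the inhibitor arrays. Other falls were in Scn2b (-1.67 ± 0.10), Aqp4 (-1.38 ± 0.08), Cdca7 (-1.19 ± 0.09), Rgmb (-1.03 ± 0.08), Sox9 (-0.82 ± 0.09) and Smoc2 (-0.58 ± 0.07). Tnfrsf19, a receptor known as a Wnt target, went the other way, from signals of 19.6, 24.2 and 57.5 to 107, 119 and 117, and the adhesion receptor Cd44 changed by 0.47 ± 0.11. Wnt target and feedback genes fell in 13 of 24 (12 held) and rose in 5, with Tnfrsf19 and Cd44 held and Apcdd1, Lrp6 and Notum not. Many of these, among them Ascl2, Axin2, Lgr5, Sox9, Tnfrsf19 and Cd44, are also in the stem cell list. Axin2, the feedback scaffold of the pathway, had signals of 932, 1151 and 1161 in the untreated arrays and 443, 349.5 and 479 in the inhibitor arrays, and Myc of 1047, 1257 and 1249.7 untreated and 707, 708 and 689 under the inhibitor. Myb, a transcription factor of crypt progenitors, had signals of 2077, 1935 and 1698 in the untreated arrays and 484, 453 and 445 in the inhibitor arrays, a 4.01-fold fall (adjusted p = 4.12e-06). Among Notch genes 7 of 22 fell (6 held), including the ligand Dll1 (-0.74 ± 0.07), the receptor Notch1 (-0.69 ± 0.13), the feedback gene Nrarp (-0.98 ± 0.08) and the fringe enzyme Lfng, with signals of 152, 212 and 170.2 untreated and 32.9, 43.98 and 44.3 under the inhibitor. Notch3 alone rose in that list (1.11 ± 0.11), in which 31.8% of members were called lower beside 23.9% of all genes. Eph receptors, which sort crypt from villus cells, divided: Ephb3 (-0.67 ± 0.10) and Ephb4 (-0.53 ± 0.11) fell with the ligand Efna4 (-1.31 ± 0.11), while Epha4 (0.99 ± 0.20), Efnb2 (0.73 ± 0.09) and Efna1 (0.37 ± 0.07) were among 6 of 14 that rose.

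The secretory lineages did not share 1 pattern. Goblet cell genes fell in 19 of 28 members (17 held), with a median of -0.64. Atoh1, the transcription factor that starts the secretory programme, had signals of 279, 340.1 and 346 in the untreated arrays and 118, 132 and 108 in the inhibitor arrays, and Spdef, which acts after it in goblet and Paneth cells, of 174, 219.9 and 269 in the untreated arrays and 94.2, 102 and 82.5 in the inhibitor arrays. Creb3l4, a membrane-bound transcription factor, had signals of 130.1, 144 and 133 in the untreated arrays and 12.2, 18.03 and 6.73 in the inhibitor arrays, so that it was below the filter level on all inhibitor arrays. Bhlha15, a regulator of secretory cell architecture, had signals of 243, 336 and 319 untreated and 56.1, 77.7 and 103 under the inhibitor. Fcgbp, a mucus protein, changed by -1.21 ± 0.09, whereas Muc2, the gel-forming mucin itself, had signals of 2324, 2535 and 2433 in the untreated arrays and 2047, 2243 and 2129 in the inhibitor arrays and was not called (adjusted p = 0.0693). Muc13, a transmembrane mucin, and Tspan13 rose, by 0.35 ± 0.10 and 0.77 ± 0.08. Paneth cell genes fell in 8 of 15 (8 held). Mptx1, a pentraxin, had signals of 389.9, 615 and 621 in the untreated arrays and 60.3, 59.5 and 64.02 in the inhibitor arrays, and Clps, the cofactor of pancreatic-type lipase, of 1914, 2562 and 2352 untreated and 634, 633 and 635 under the inhibitor. The zinc carrier of their granules, Slc30a2, changed by -0.63 ± 0.10. Lyz1, their lysozyme, had signals of 160.4, 136 and 251 untreated and 126, 129 and 149 under the inhibitor and was not called on that dim probe set. With its probe sets averaged the change of Lyz1 was -0.41 (adjusted p = 0.00371), and without untreated replicate 2 it was -0.53 (adjusted p = 0.0358). It also passed with the brightest probe set. Sec16b and Pnliprp2 rose (0.34 ± 0.09 and 0.37 ± 0.09). Of the alpha-defensins, whose near-identical copies share probes, 2 could be tested, and the probe set named Defa39 had signals of 6299, 7605 and 6816 in the untreated arrays and 1631, 1510.4 and 1418 in the inhibitor arrays.

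Tuft cell genes fell in 8 of 21 (8 held), among them Rgs13 (-1.63 ± 0.21), the leukotriene cofactor Alox5ap (-1.30 ± 0.18) and the kinase Dclk1, with signals of 75.2, 74.95 and 93.3 in the untreated arrays and 25.1, 23.6 and 32.8 in the inhibitor arrays. Only the receptor Ltbr rose in that list (0.36 ± 0.09). In the enteroendocrine lineage transcription factors and hormones parted. Of 15 transcription factors 9 fell (8 held) and none rose, with Foxa2 (-1.05 ± 0.09), Sox4 (-1.02 ± 0.08), Rfx3 (-0.96 ± 0.14) and St18 (-0.96 ± 0.16) among them. Neurog3, which commits progenitors to the lineage, had signals of 445, 631 and 609 untreated and 667, 591 and 619 under the inhibitor and was not called. Of 23 hormones and granins 10 rose (7 held) and 5 fell (4 held). Gcg, which encodes the precursor of GLP-1, had signals of 984, 1047 and 1066 in the untreated arrays and 1588, 1701 and 1825 in the inhibitor arrays, cholecystokinin Cck of 1419.5, 1542 and 1568 untreated and 2073, 1843 and 2013 under the inhibitor, and amylin, Iapp, of 258, 320.4 and 369 untreated and 954, 887 and 972 under the inhibitor. Gastrin, Gast, was dim in all untreated arrays and changed by 1.64 ± 0.25, somatostatin Sst changed by 0.50 ± 0.09, and the peptide-processing enzyme Cpe by 1.00 ± 0.13. The falls that held were in Pyy (-0.80 ± 0.21), Ucn3 (-0.86 ± 0.17), Tph1 (-0.61 ± 0.14), which makes serotonin, and secretin, Sct (-0.46 ± 0.11), and Chgb fell without holding. Chga, chromogranin A, had signals of 411, 533 and 602 untreated and 449, 379 and 418 under the inhibitor and was not called. Ret, a receptor kinase best known from enteric neurons, had signals of 45.3, 36.8 and 56.96 in the untreated arrays and 158, 171 and 155 in the inhibitor arrays.

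Microvillus and terminal web genes rose in 21 of 28 members (18 held) and fell in none, against 21.2% of all genes called higher. Vil1, villin, which bundles actin in microvilli, had signals of 5506, 5555 and 5449 in the untreated arrays and 7452, 8400.3 and 7723 in the inhibitor arrays, and Krt20, a keratin of differentiated cells, of 2329.9, 2303 and 2367 in the untreated arrays and 4833, 5199.6 and 4891 in the inhibitor arrays. The protocadherins that link microvillus tips, Cdhr2 (0.87 ± 0.07) and Cdhr5 (0.84 ± 0.10), rose by similar amounts, as did Eps8 (0.72 ± 0.08) and espin, Espn (1.08 ± 0.12). Brush border hydrolases rose in 10 of 17 (9 held). Dpp4, which trims dipeptides, had signals of 1439, 1521 and 1518 in the untreated arrays and 3606, 4029 and 3719 in the inhibitor arrays, and Anpep of 713, 679.8 and 855 in the untreated arrays and 2895, 2693 and 2877 in the inhibitor arrays. Lactase, Lct, rose by 0.35 ± 0.09. The 2 that fell were the alkaline phosphatase Akp3 (-1.53 ± 0.26) and Cps1 (-0.95 ± 0.12), a mitochondrial urea cycle enzyme that this list held as an enterocyte marker. Alpi, another intestinal alkaline phosphatase, had signals of 9154, 9617 and 8579 untreated and 7708, 9049 and 8178 under the inhibitor with overlapping groups and was not called.

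Lists of genes ordered along the villus rose at each level, in 5 of 11 lower-zone (5 held), 8 of 13 mid-zone (7 held) and 12 of 17 tip genes (9 held). The median changes were 0.18, 0.34 and 0.43, and the differences between these lists were not tested. The mid-zone genes that rose are all counted among the solute carriers too. Several tip genes that rose, such as Apoa1, Npc1l1 and Krt20, are also in the fat absorption or microvillus list. Reg3b, a lectin of the lower zone, had signals of 4516, 4442 and 2491 in the untreated arrays and 7282, 8971 and 8093 in the inhibitor arrays. The peptide carrier Slc15a1 of the mid zone had signals of 276, 233 and 219 in the untreated arrays and 689, 652 and 641 in the inhibitor arrays, and Nt5e, the tip ectonucleotidase that makes adenosine, of 20, 24.6 and 29.5 in the untreated arrays and 94.3, 46.5 and 80.1 in the inhibitor arrays. The exceptions among called members were Reg3a, which fell without holding, the fructose carrier Slc2a5 (-0.55 ± 0.10), and Egfr, whose probe sets disagreed. Fabp1 and Hnf4a, fatty acid binding protein and a master regulator of enterocytes, were bright and not called (-0.03 ± 0.11 and 0.04 ± 0.09).

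**Figure D3:**
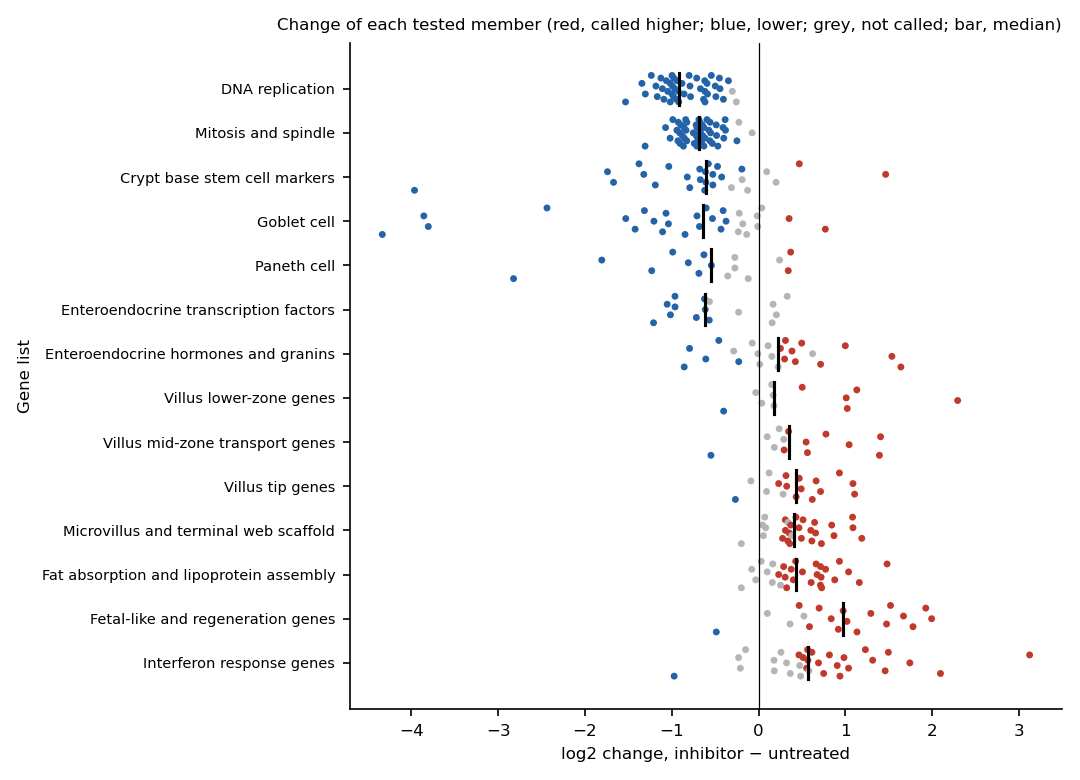
Each point is a tested member of 1 of 14 gene lists, placed by its log2 change, inhibitor minus untreated, with members called higher in red, called lower in blue and not called in grey, and the list's median as a bar. Replication and mitosis members lie left of 0, the microvillus and fat absorption members mostly right of it, and the goblet list reaches furthest left through Ccl6 at -4.34.

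Of 29 genes of fat absorption and lipoprotein assembly 21 rose (18 held) and none fell. Cd36, a fatty acid receptor, had signals of 151, 200.4 and 129 in the untreated arrays and 413, 475 and 523 in the inhibitor arrays. Apob, the scaffold of chylomicrons, had signals of 2294, 2247 and 2042 in the untreated arrays and 4395, 5180.0 and 5217 in the inhibitor arrays, and Apoa1, the main protein of high-density lipoprotein, of 10629.6, 10651 and 9097 untreated and 14578, 17513 and 16001 under the inhibitor. Creb3l3, a transcription factor of lipoprotein genes, changed by 0.93 ± 0.13 and the lipid droplet protein Cidec by 1.04 ± 0.11. Apoa4 rose (0.32 ± 0.12) without holding. LXR and cholesterol efflux genes rose in 6 of 16 (6 held), among them the gene pair of a sterol exporter. Abcg5 had signals of 1695, 1576 and 1474 untreated and 4768, 5717 and 4992 under the inhibitor, and Abcg8 of 455, 416 and 389 untreated and 1024, 1018 and 918 under the inhibitor. Smpdl3a, another LXR target, fell (-0.71 ± 0.09). Sterol synthesis genes rose in 8 of 20 (5 held, namely Cyp51, Dhcr7, Ebp, Insig1 and Tm7sf2), such as Dhcr7 (0.59 ± 0.09), the last enzyme of cholesterol synthesis. Sphingolipid genes rose in 14 of 31 (11 held) and fell in 3. Ugcg, which glucosylates ceramide, changed by 1.02 ± 0.09 and Asah2, the brush border ceramidase, by 1.04 ± 0.09, while the alkaline ceramidase Acer1 fell from signals of 239, 274 and 199 to 14.7, 13.6 and 29.1, with Cerk and Smpd3 as the smaller falls (-0.45 ± 0.08 and -0.37 ± 0.08). Among PPAR targets, of which 9 of 27 rose (7 held), Angptl4, an inhibitor of lipoprotein lipase, had signals of 207, 214 and 209.9 untreated and 692, 604 and 582 under the inhibitor.

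Solute carriers, the largest list, rose in 95 of 267 members (72 held) and fell in 42 (26 held). Those that rose included the dibasic amino acid partners Slc3a1 (1.40 ± 0.08) and Slc7a9 (0.78 ± 0.10), the zinc carriers Slc39a8 (1.84 ± 0.10) and Slc39a4 (0.68 ± 0.09), the iron exporter Slc40a1 (0.89 ± 0.08) and the creatine carrier Slc6a8 (1.25 ± 0.10). Slc2a9, a urate carrier, had signals of 115, 105 and 86.6 in the untreated arrays and 328, 377 and 459 in the inhibitor arrays, and Slc25a4, the mitochondrial ADP/ATP exchanger, of 1400.1, 1579 and 1877 untreated and 4318, 4446 and 4570.2 under the inhibitor. Carriers that fell included the glutamate carrier Slc1a1, with signals of 757, 754 and 639 untreated and 183, 176 and 227 under the inhibitor, the glutamine carrier Slc1a5 (-0.87 ± 0.08) and the nucleoside carrier Slc29a1 (-1.09 ± 0.09). Among 27 carriers of amino acids, peptides and nucleosides 11 rose (10 held) and 10 fell (6 held). Of 9 sugar transporters Slc2a1 and Slc2a9 rose and held, Slc2a5 and Slc5a4b fell and held, and Slc5a4a and Slc5a11 fell without holding. ABC transporters rose in 12 of 34 (12 held), with the drug efflux pump Abcb1a at 1559, 1421 and 1463 untreated and 3606, 3233 and 3458 under the inhibitor, and fell in 2, Abce1 and, without holding, Abcf2, which are translation factors and not membrane pumps. Ion channels, pumps and aquaporins fell in 12 of 28 (10 held) and rose in 7 (5 held, namely Aqp11, Atp2b1, Slc26a6, Slc9a2 and Slc9a3). The chloride channels Cftr (-0.65 ± 0.09) and Ano1 (-1.36 ± 0.22), the potassium channels Kcnn4 (-1.23 ± 0.08) and Kcnq1 (-0.85 ± 0.08) and the chloride loader Slc12a2 (-0.79 ± 0.14), all of which serve fluid secretion, fell, whereas the anion exchanger Slc26a6 rose (0.91 ± 0.11).

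Cytochrome P450 genes rose in 24 of 43 (19 held) and fell in 5, Cyp11a1, Cyp2c70 and Cyp39a1, which held, and Cyp2d9 and Cyp4f15, which did not. Cyp2c55 had signals of 3157, 3104 and 3295 in the untreated arrays and 10172, 11454 and 10726 in the inhibitor arrays, Cyp3a11 of 6921, 7299.8 and 5731 in the untreated arrays and 14687, 17448 and 15843 in the inhibitor arrays, and Cyp2b10 of 1801, 1679 and 1386 untreated and 4324, 4316 and 3931 under the inhibitor. All 3 are known to be induced through nuclear receptors for foreign compounds, and members of these families have similar sequences whose probes may not separate them. Phase II enzymes rose in 17 of 34 (13 held), such as Gstm2 (0.75 ± 0.06) and Sult1d1 (0.92 ± 0.09), and fell in 3, Gstt1, Sult1c2 and Gstt2, the last without holding. Aldehyde, alcohol and aldo-keto dehydrogenases rose in 14 of 44 (12 held) and fell in 9 (5 held, namely Adh4, Adh7, Aldh1b1, Aldh1l2 and Aldh5a1). The shares of these dehydrogenases higher and lower were 31.8% and 20.5%, beside 21.2% and 23.9% of all genes. Carboxylesterases rose in 5 of 12 (4 held, namely Ces2a, Ces2b, Ces2e and Ces2g), with Ces2a at 2687, 2472 and 1918 untreated and 7480.1, 8497 and 8311 under the inhibitor, while Ces1c fell (-1.14 ± 0.16). Targets of the aryl hydrocarbon receptor and NRF2 rose in 14 of 23 (8 held), a count of 9 when probe sets of a gene were averaged. In that list Srxn1 (1.08 ± 0.07), which repairs oxidised peroxiredoxins, and Osgin1 (0.85 ± 0.11) rose, and Nqo1 (-0.58 ± 0.10), Gpx2 (-0.51 ± 0.11) and Tkt fell, the last without holding.

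Of 19 basement membrane genes 8 rose (4 held), Nid1, Col18a1 (1.30 ± 0.34), Lamb3 (0.70 ± 0.07) and Agrn (0.65 ± 0.07) among them. Without untreated replicate 3 the change of Col18a1 was 0.81. Averaging the probe sets of a gene left 5 of the 8. Smoc2 and Hspg2 fell, the latter without holding. Integrins rose in 5 of 17 (4 held, namely Itga3, Itga7, Itgav and Itgb4), with the hemidesmosome subunit Itgb4 at 327, 319 and 291 in the untreated arrays and 609.6, 557 and 576 in the inhibitor arrays, and fell in 2, Itga9 (-1.13 ± 0.27) and Itga6, the latter without holding. The share of integrins called higher was 29.4% beside 21.2% of all genes. Tight junction genes rose in 10 of 25 (7 held) and fell in none, such as the claudins Cldn4 (0.82 ± 0.16) and Cldn23 (1.17 ± 0.13). Of 10 mesenchymal transition genes above the filter, Vim fell (-1.11 ± 0.14) and Prrx1 rose without holding. Matrix proteases and inhibitors included the plasminogen activator Plat, with signals of 262, 299 and 403 in the untreated arrays and 1209, 975 and 1192 in the inhibitor arrays, and Timp3, an inhibitor of metalloproteases, with signals of 89.4, 81.2 and 116 untreated and 25.4, 21.5 and 22.4 under the inhibitor.

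Genes known from fetal-like and regenerating epithelium rose in 15 of 19 members (15 held), with a median of 0.97, and only Krt7 fell (-0.49 ± 0.08). Clu, clusterin, a marker of revival stem cells, had signals of 82.04, 66.2 and 139 in the untreated arrays and 343, 322 and 315 in the inhibitor arrays. Anxa1, an annexin of membrane repair, had signals of 376, 462 and 816 in the untreated arrays and 1646, 1459 and 1480.4 in the inhibitor arrays, and Ly6d, a surface protein, of 58.9, 69.4 and 114 untreated and 311, 309 and 298 under the inhibitor. Sprr1a, a cross-linked envelope protein, had signals of 735, 735 and 1053 untreated and 3273, 3059 and 3251 under the inhibitor. Of 14 EGF family genes 7 rose (6 held) and 4 fell (2 held). The ligands that rose and held were Hbegf (0.96 ± 0.10), Btc (0.69 ± 0.14) and Tgfa, with signals of 572, 603 and 602 in the untreated arrays and 879.6, 966 and 905 in the inhibitor arrays. Their shedding protease Adam17 (0.30 ± 0.08) and the feedback inhibitor Errfi1 (1.03 ± 0.07) were higher as well, and the negative regulator Lrig1 (-0.62 ± 0.11) and the ligand Nrg4 (-0.86 ± 0.19) fell. Without holding, the ligand Ereg rose and Egfr and Lrig3 fell. Feedback genes of ERK signalling rose in 9 of 20 (7 held), with the ERK phosphatase Dusp6 at 866, 889 and 841 in the untreated arrays and 2516, 2468 and 2436 in the inhibitor arrays and Dusp5 at 548, 406 and 599 untreated and 1508, 1293 and 1175 under the inhibitor. Dusp4, Ccnd1 and Myc, which the same list holds as ERK targets, fell. Immediate early genes rose in 10 of 24 (7 held), such as Egr1 (0.71 ± 0.10) and Klf2 (1.28 ± 0.22), with Nr4a2 the only fall, which did not hold.

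Interferon response genes rose in 20 of 32 (16 held), with a median of 0.57. Irf7, the transcription factor that amplifies interferon production, had signals of 185, 209 and 199 in the untreated arrays and 457, 469 and 530.0 in the inhibitor arrays, and Oasl2 of 42.4, 41.03 and 57.2 in the untreated arrays and 151, 244 and 194 in the inhibitor arrays. Rsad2, viperin, which blocks viral replication, had signals of 50.5, 57.1 and 56.7 in the untreated arrays and 138, 205 and 144 in the inhibitor arrays. Ifit1 had signals of 43.2, 72.5 and 109 in the untreated arrays and 104, 211 and 153 in the inhibitor arrays, with overlapping groups. Its call did not hold, with an adjusted p of 0.0503 without inhibitor replicate 2. Ifit2 fell (-0.97 ± 0.20), as did Ifitm3, described above and not in the list. MHC genes rose in 8 of 22 (5 held, namely H2-Ab1, H2-Bl, H2-DMa, H2-Q2 and Tapbp), a count of 5 without untreated replicate 3. The class II gene H2-Ab1 had signals of 64.3, 52.8 and 72.995 in the untreated arrays and 333, 191 and 167 in the inhibitor arrays. Chemokines rose in 6 of 17 (5 held, namely Ccl17, Ccl20, Cx3cl1, Cxcl11 and Cxcl16), such as Cx3cl1 (1.03 ± 0.09), Cxcl16 (0.81 ± 0.10) and Ccl20 (0.48 ± 0.11), and fell in 3, Ccl6, Ccl9 and Ccl28. Complement genes rose in 7 of 11 (4 held, namely C4bp, Cd55, Cfb and Clu), with the inhibitor C4bp at 501, 439.9 and 455 untreated and 2139, 1879 and 1859 under the inhibitor, and fell in 2, C1ra (-0.93 ± 0.19) and Cfi (-0.84 ± 0.09).

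Promoters of Rsad2 and Ifit1 are shown because they carry the core of the interferon-stimulated response element, GAAA and GAAA with any 2 bases between them, on either strand. That core stood in 45.8% of 24 interferon response genes with a window and in 3.50% of all genes tested that had one. Among genes called higher that had a window it stood in 4.34%. The stretches again end at the base before the start, with the core in capitals as it reads on the gene's strand.
Rsad2, chr12:26456453-26456582, - strand: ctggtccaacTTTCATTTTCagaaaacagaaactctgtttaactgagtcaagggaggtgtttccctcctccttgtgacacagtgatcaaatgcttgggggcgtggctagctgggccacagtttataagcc
Ifit1, chr19:34640769-34640888, + strand: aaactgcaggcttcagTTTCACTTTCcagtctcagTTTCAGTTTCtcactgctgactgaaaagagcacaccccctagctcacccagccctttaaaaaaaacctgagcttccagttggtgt
Rsad2 had 1 core, 120 bases before the start, and Ifit1 had 2, at 104 and 85 bases. The gene with 1 core had a call that held, and the gene with 2 did not.

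Of 18 circadian clock genes tested, 9 fell (7 held) and 3 rose (2 held). The activator Arntl had signals of 250.4, 239 and 226 in the untreated arrays and 416, 427 and 417 in the inhibitor arrays, and Npas2, its partner, of 267, 269.8 and 381 in the untreated arrays and 544, 580.4 and 591 in the inhibitor arrays. Clock, the other partner, rose by 0.27 ± 0.07 without holding, since its probe sets disagreed. Dbp, a transcription factor of clock output, had signals of 726, 708 and 619 in the untreated arrays and 113, 128 and 128 in the inhibitor arrays, a 5.04-fold fall (adjusted p = 4.09e-09). The repressors Per2 and Per3 had signals of 508, 457 and 482 untreated and 222, 224 and 222 under the inhibitor, and of 344, 345 and 415 untreated and 125, 117 and 109 under the inhibitor. Ciart, another repressor, had signals of 319, 295 and 273 in the untreated arrays and 102, 104 and 112 in the inhibitor arrays, and Nr1d2, the nuclear receptor that represses Arntl, of 2354, 2895 and 2517 untreated and 763, 954 and 862 under the inhibitor. Tef (-0.78 ± 0.07), a relative of Dbp, and Per1 (-0.38 ± 0.09) also fell and held, while Cry1 and Nr1d1 fell without holding. In every gene of this list that held, the groups did not overlap. A call that passes with each array left out makes this likely by itself, and 55.9% of all genes tested showed it. The labels give no hour of collection, and whether it differed between the groups was not tested.

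**Figure D4:**
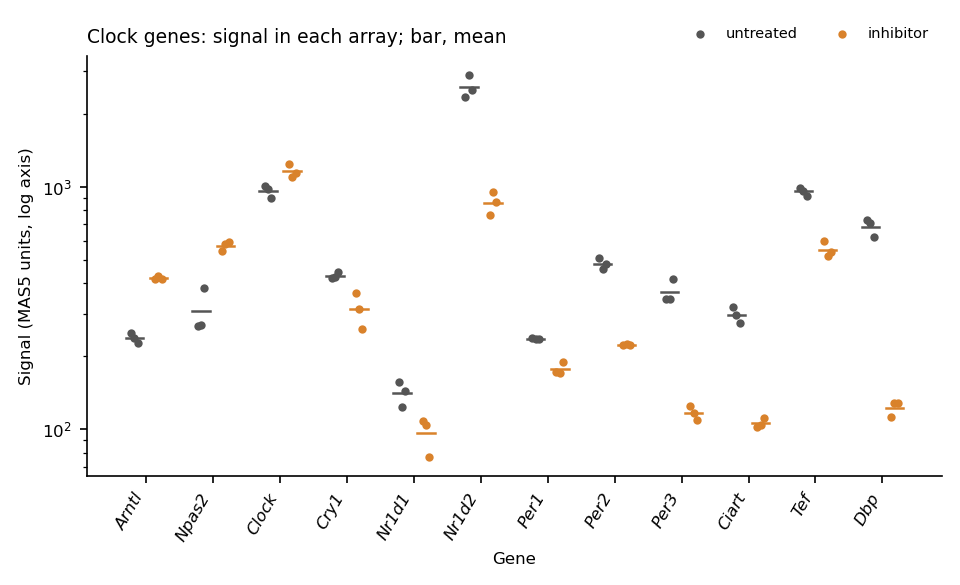
Signal (MAS5 units, log axis) of 12 clock genes in each of the 3 untreated arrays (grey) and 3 inhibitor arrays (orange), with the group mean as a bar. Arntl, Npas2 and Clock lie higher under the inhibitor and the other 9 lower, with the widest gap in Dbp.

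The promoters of Ciart and Per3 are shown because they hold the letters through which the clock is known to act, the E-box CACGTG bound by Arntl and Clock or Npas2 and the D-box TTATGTAA bound by Dbp and Tef. The E-box stood in 31.2% of 16 clock genes with a window, in 25.0% of 44 ribosome biogenesis genes and in 11.5% of all genes tested that had one. The D-box stood in 6.25% of the clock genes, Per3 alone, and in 0.631% of all. Ciart is printed with its E-boxes in capitals and Per3 with its D-boxes in capitals.
Ciart, chr3:95882229-95882358, - strand: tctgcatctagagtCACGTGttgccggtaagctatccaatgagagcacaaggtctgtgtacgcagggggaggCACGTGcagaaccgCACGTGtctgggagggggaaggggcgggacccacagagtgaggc
Per3, chr4:151044666-151044875, - strand: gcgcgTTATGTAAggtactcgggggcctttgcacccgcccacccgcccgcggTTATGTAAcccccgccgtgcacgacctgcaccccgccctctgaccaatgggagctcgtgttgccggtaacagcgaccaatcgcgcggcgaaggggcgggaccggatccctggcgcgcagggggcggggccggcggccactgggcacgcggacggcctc
Ciart had 3 E-boxes, at 116, 58 and 44 bases before the start, and Per3 had 2 D-boxes, at 205 and 158 bases.

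Targets of p53 rose in 16 of 25 (12 held), with a median of 0.37, and fell in 2, Ddb2 (-0.80 ± 0.09) and Ddit4 (-0.33 ± 0.09). Ccng1, cyclin G1, had signals of 3258, 3169 and 2994 in the untreated arrays and 5811, 5468 and 5799 in the inhibitor arrays. Plk2, a polo-like kinase, had signals of 196, 159.7 and 177 untreated and 395, 379 and 399 under the inhibitor, and Mdm2, the ubiquitin ligase that limits p53, of 592, 626 and 611 untreated and 938, 782 and 894 under the inhibitor. The death receptor Fas changed by 0.97 ± 0.12. Transcription factors of the intestine fell in 17 of 34 (14 held) and rose in 5, which were Arntl, Creb3l3, Hnf4g (0.62 ± 0.12), Klf4 (0.49 ± 0.07) and Maf, with Maf signals of 506, 448 and 674 in the untreated arrays and 1225, 1039.8 and 1012 in the inhibitor arrays. Cdx1 changed by -0.37 ± 0.10, Cdx2 fell without holding (-0.22 ± 0.08) and Gata4 was not called (-0.19 ± 0.09). Esrrg, an orphan nuclear receptor, had signals of 476, 579 and 436 in the untreated arrays and 112, 122 and 136 in the inhibitor arrays, among 11 of 31 nuclear receptors that fell (5 held).

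Over all 81 lists with at least 10 tested members, 45 had a share of members called higher above the background of 21.2% and a share called lower below that of 23.9%, 22 had the reverse, 5 exceeded both and 9 exceeded neither. Lists share members, and they describe where the called genes lay without testing it. Of 3101 called genes with more than 1 probe set above the filter, 1030 had all probe sets called in the same direction, and 3029 had none called in the other direction.

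**Figure D5:**
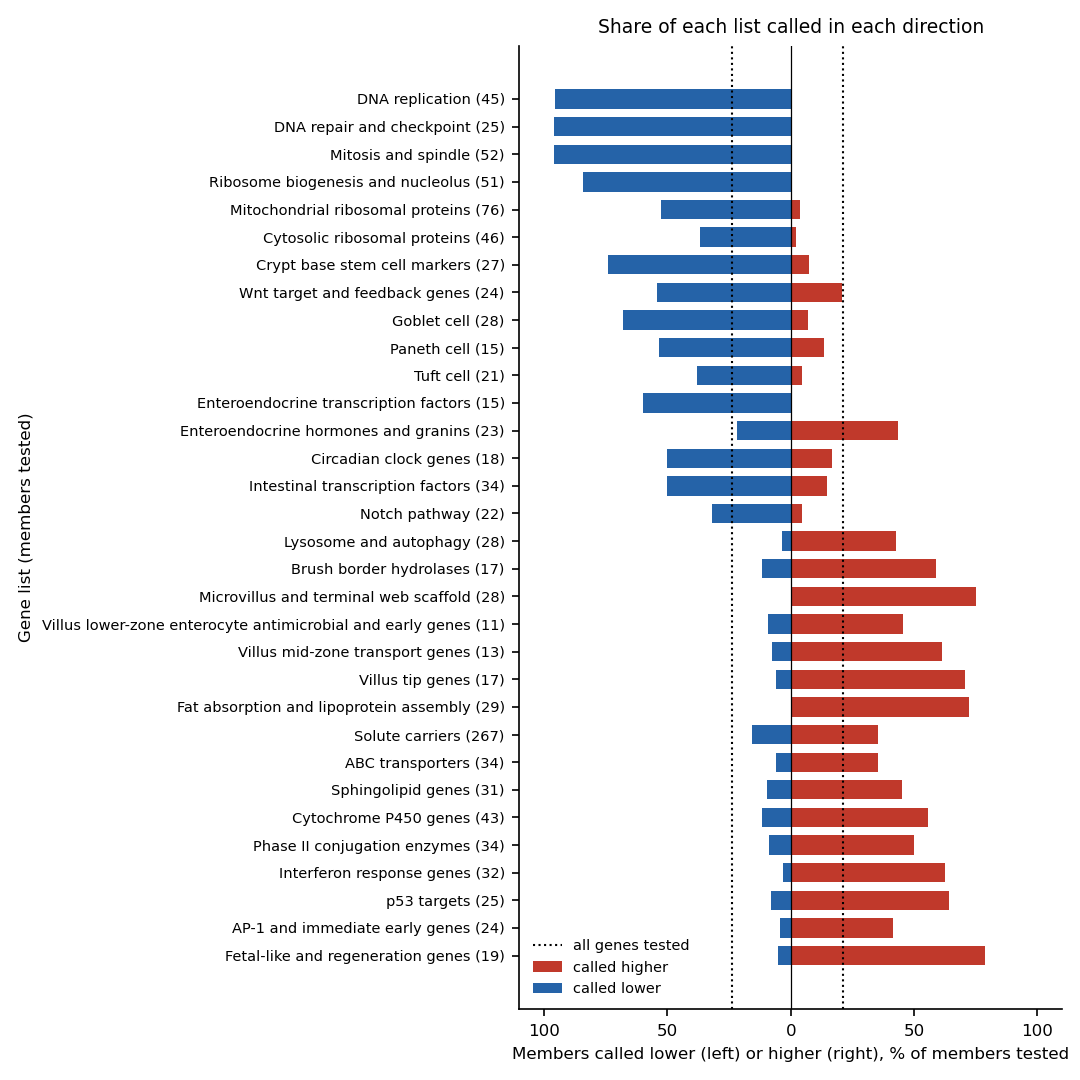
Bars give the percentage of tested members called lower (left, blue) and higher (right, red) in 32 gene lists, with the number tested in brackets and dotted lines at the shares of all genes tested, 23.9% and 21.2%. The cycle, repair and ribosome biogenesis lists reach furthest left, and the fetal-like, microvillus and fat absorption lists furthest right.

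The arrays of organoids given TGF-beta1 share the untreated controls, so their values are set beside these without a test. Olfm4 had signals of 13159, 15728 and 15058 with the ligand, each above the lowest untreated array and far above the inhibitor arrays. Nid1 had 65.2, 65.1 and 71.4, and Pmepa1 had 707, 616 and 569 beside 198, 188 and 228 untreated. Cdkn2b had 672, 659.8 and 567, each below every untreated value given above, whereas its inhibitor values lay above them. Dbp had 421, 374 and 345, each below every untreated value given above. Dbp was thus lower than untreated with the ligand as well as with the inhibitor.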

How the data were processed

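RNA of organoids from mouse small intestine was measured on 9 arrays, 3 per group, and the inhibitor and untreated groups, 6 arrays, were compared. The deposited values are linear intensities, 1 signal per probe set, which the authors summarised with MAS5 per the submitters' processing notes; its version is not given there. Trimming 2% at each end, every array had a mean signal of 350.0, so each array had been scaled to 1 level, which removes any difference in total RNA. Array medians ran from 46.1 to 57.9, and 27.2% to 30.7% of signals were at or below 16. With 3 arrays per group their number limits precision.

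Of 45101 probe sets, 34945 had 1 gene symbol in the platform annotation, 932 had several, 9160 were unnamed there and 64 were controls; those without 1 symbol were left out. Probe sets were kept where the signal exceeded its array's 40th percentile, a signal of 25.9 to 32.0 here called the filter level, on at least 3 of the 9 arrays. The probe set with the highest mean stood for its gene, with _x_at probe sets as a last resort, which gave 12941 genes. limma 3.58.1 in R 4.3.3 fitted log2(signal + 16) with a mean per group over all 9 arrays, 6 residual degrees of freedom and a variance trend, with 2-sided tests and Benjamini-Hochberg adjustment at 0.05. The procedure was also run on simulated data with independent noise and few changed genes. That setting differs from these data, so the run does not give the error rate of these calls. Alternatives changed 1 choice each: the arrays fitted, a replicate block, the offset, the filter, the scaling between arrays, the trend, the probe set per gene, and each array left out.

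The genes named are the 40 largest rises and 40 largest falls among calls without overlap, up to 6 called members without overlap and with the smallest p per list, a set of fixed genes, and further genes chosen after their values were seen, among them Arntl, Npas2, Clock, Nr1d1, Cry1, Per1, Ifit1, Ifit2, Rsad2, Reg3a, Akp3, Egfr, Pyy, Ucn3, Tph1, Sct, Chgb, Tnfrsf19, Cd44, Muc13, Tspan13, Pnliprp2 and Sec16b. Members of small counts are also named. The 94 gene lists come from general knowledge, and the comparison and the lists were chosen with earlier results of these data known, so no list was tested as a set. Same-numbered arrays of both groups were treated as unpaired, since the labels do not say that replicate numbers pair arrays. Their deviations from the group means correlated at 0.075, 0.050 and 0.012, and those of differently numbered arrays at -0.075 to 0.027. These values do not settle whether arrays were paired.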

Additional observations from a re-analysis of the deposited data

How the results depend on the processing

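The number of called genes, 5837, ranged from 5068 to 6190 over the 16 alternatives, and the counts higher, lower and at least 1.5-fold changed stayed within 1.5 times their values. Leaving out 1 array at a time gave 5068 to 5226 called genes, and 84.6% to 86.6% of the calls were kept. Without the filter 18193 genes were tested and 5561 called. The share of calls that were higher, 47.0%, became 53.1% with arrays centred on their medians and 51.1% with quantile normalization, which moved the median change of all genes from -0.009 to 0.034 and 0.022. With the replicate number as a block 5759 genes were called, with 96.3% of the calls kept, although the numbers were not shown to pair arrays. Of the 596 named genes, 502 kept their sign and their call or lack of one under every alternative. Among the named genes that were called, reversed signs came from the choice of probe set. With probe sets averaged the changes were -0.006 for Clock, -0.029 for Cr1l, 0.160 for Egfr, -0.059 for Mrps21 and -0.141 for Nectin3, and with the brightest probe set they were -0.198 for Apcdd1, -0.705 for Mapk12 and -0.148 for Psmc2. None of these reversed values passed the test, but a few among the genes not named did. With probe sets averaged, 4980 of all called genes were called again, 4974 of them in the same direction. With the brightest probe set the counts were 5765 and 5764. Fabp1, Skil, Tgfbi and Hnf4a, not called, also changed sign under 1 or more alternatives, leaving out an array included for the first 3. Signals near the offset of 16 limit what can be said of dim genes, whose changes are understated, and 3 arrays per group do not show how separate cultures vary.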
